A study of Mus musculus with 5 samples.

Results

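The nuclear genes of oxidative phosphorylation were followed in newborn mouse ovaries that lack Lhx8, a homeobox transcription factor of oocytes, against wild type ovaries. Members were taken by symbol: every gene whose symbol begins with Nduf, Uqcr or Atp5, the Cox4, Cox5, Cox6, Cox7 and Cox8 genes, and Sdha, Sdhb, Sdhc, Sdhd and Cyc1. This gave 91 genes, represented by 180 probe sets, of 18193 genes that had a probe set with a single gene symbol. The symbols also take in 8 Ndufaf genes, which encode assembly factors for complex I and not subunits, so 83 members encode subunits or their isoforms. Subunits encoded by mitochondrial DNA are outside the symbol rule, and genes whose probe sets carry several symbols were not analysed here.

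RNA was hybridised to 5 Affymetrix arrays, 3 with Lhx8 null ovaries (replicates 1, 2 and 3) and 2 with wild type ovaries (replicates 2 and 3). All animals were females on a C57/BL6/129SVEV hybrid background, dissected at postnatal day 0.5, and the null animals are described by the labels only as Lhx8 null. Each array carried RNA pooled from 50 ovaries of at least 25 animals, so the replicates are pools and the spread between single animals was not measured. Only the spread among these 5 pools stands behind the p-values, and the small number of arrays limits their precision.

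Oxidative phosphorylation couples the oxidation of NADH and succinate to the making of ATP in the inner mitochondrial membrane. Complexes I and II feed electrons into the ubiquinone pool, complex III passes them to cytochrome c, and complex IV hands them to oxygen. Complexes I, III and IV pump protons, and ATP synthase, also called complex V, lets them flow back to drive ATP synthesis. Oocytes are rich in mitochondria, which they pass to the embryo, and growing oocytes make ATP by oxidising pyruvate, whereas the somatic cells around them also use glycolysis. Several subunits of complex IV exist as a common isoform and an isoform restricted to tissues such as muscle or testis.

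Lhx8 itself had a deposited signal of 333, 159 and 347 in Lhx8 null ovaries, against 6450.1 and 5223 in wild type ovaries (log2 difference -4.45, SE 0.29, limma adjusted p = 1.08e-05). No source used here gives the position of its probe set relative to the deleted sequence. All 6 germ cell markers fell in null ovaries, with a summed signal of 6965, 6145 and 9769 there against 49294 and 46665 in wild type ovaries, and 7 of 8 granulosa markers fell too. Markers of stroma (6 of 7), smooth muscle (5 of 5), tract epithelium (6 of 6), macrophages (5 of 5 tested) and endothelium (3 of 5) rose, as did 1 of 2 tested erythroid markers, a call lost without either wild type array. Beside these marker counts, 25.6% of all genes tested were called higher and 22.3% lower in null ovaries. In whole ovaries, fewer cells of a type and less RNA per cell cannot be told apart. The share of these shifts in the results below was not tested. The null arrays also ran brighter at the top of their range, with a 99th percentile of signal of 10788 to 11361 against 9845 to 9918 in wild type arrays, and the ratio of null to wild type means was 2.17 for the BioC hybridisation control and 1.90 for 18S ribosomal RNA.

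Oxidative phosphorylation genes changed in both directions. Of the 86 members tested, 8 rose and 28 fell in Lhx8 null ovaries, and 50 did not pass the test. A call here is an adjusted p below 0.05 in limma's moderated test with Benjamini-Hochberg adjustment over all 10916 genes tested. Over all of these genes 47.8% passed, 25.6% higher and 22.3% lower in null ovaries, whereas among members 41.9% passed, 9.3% higher and 32.6% lower. Differences are null minus wild type on the scale log2(signal + 16), which understates changes at dim probe sets. The median log2 difference was -0.09 over the tested members and 0.04 over all tested genes, and 54 of the 86 members had a negative value. A change of at least 2-fold was uncommon: 3 of the 36 called members, Cox7a1, Cox8c and Ndufaf4, reached it, against 1856 genes (17% of those tested) over the arrays as a whole. Cox7a1, counted here among the 28 lower members, had all its null signals under the limit of about 150 used for dim genes. It entered the test only through its wild type arrays, so the size of its change is not fixed.

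On the normalised scale the 2 groups were separate, with no array of either inside the range of the other, for 12 members with null above and 36 with null below. Over all tested genes the corresponding shares were 36% and 31.8%. The remaining 38 members had overlapping groups. The balance between higher and lower calls rested on how the arrays were scaled. With the deposited scaling 14 members were called higher and 22 lower, with a median of -0.0020, and with arrays centred on their medians 3 were called higher and 28 lower, with a median of -0.25. Of the calls over all genes, 53.5% were higher in null ovaries with quantile normalization, 54.8% with the deposited scaling and 33.5% with median centring. Median centring moved the median of all tested genes to -0.18. Leaving out 1 array also moved the counts. Without wild type replicate 3 there were 4 higher and 13 lower calls, without wild type replicate 2 there were 2 and 18, and without Lhx8 null replicate 2 there were 5 and 18.

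**Figure D1:**
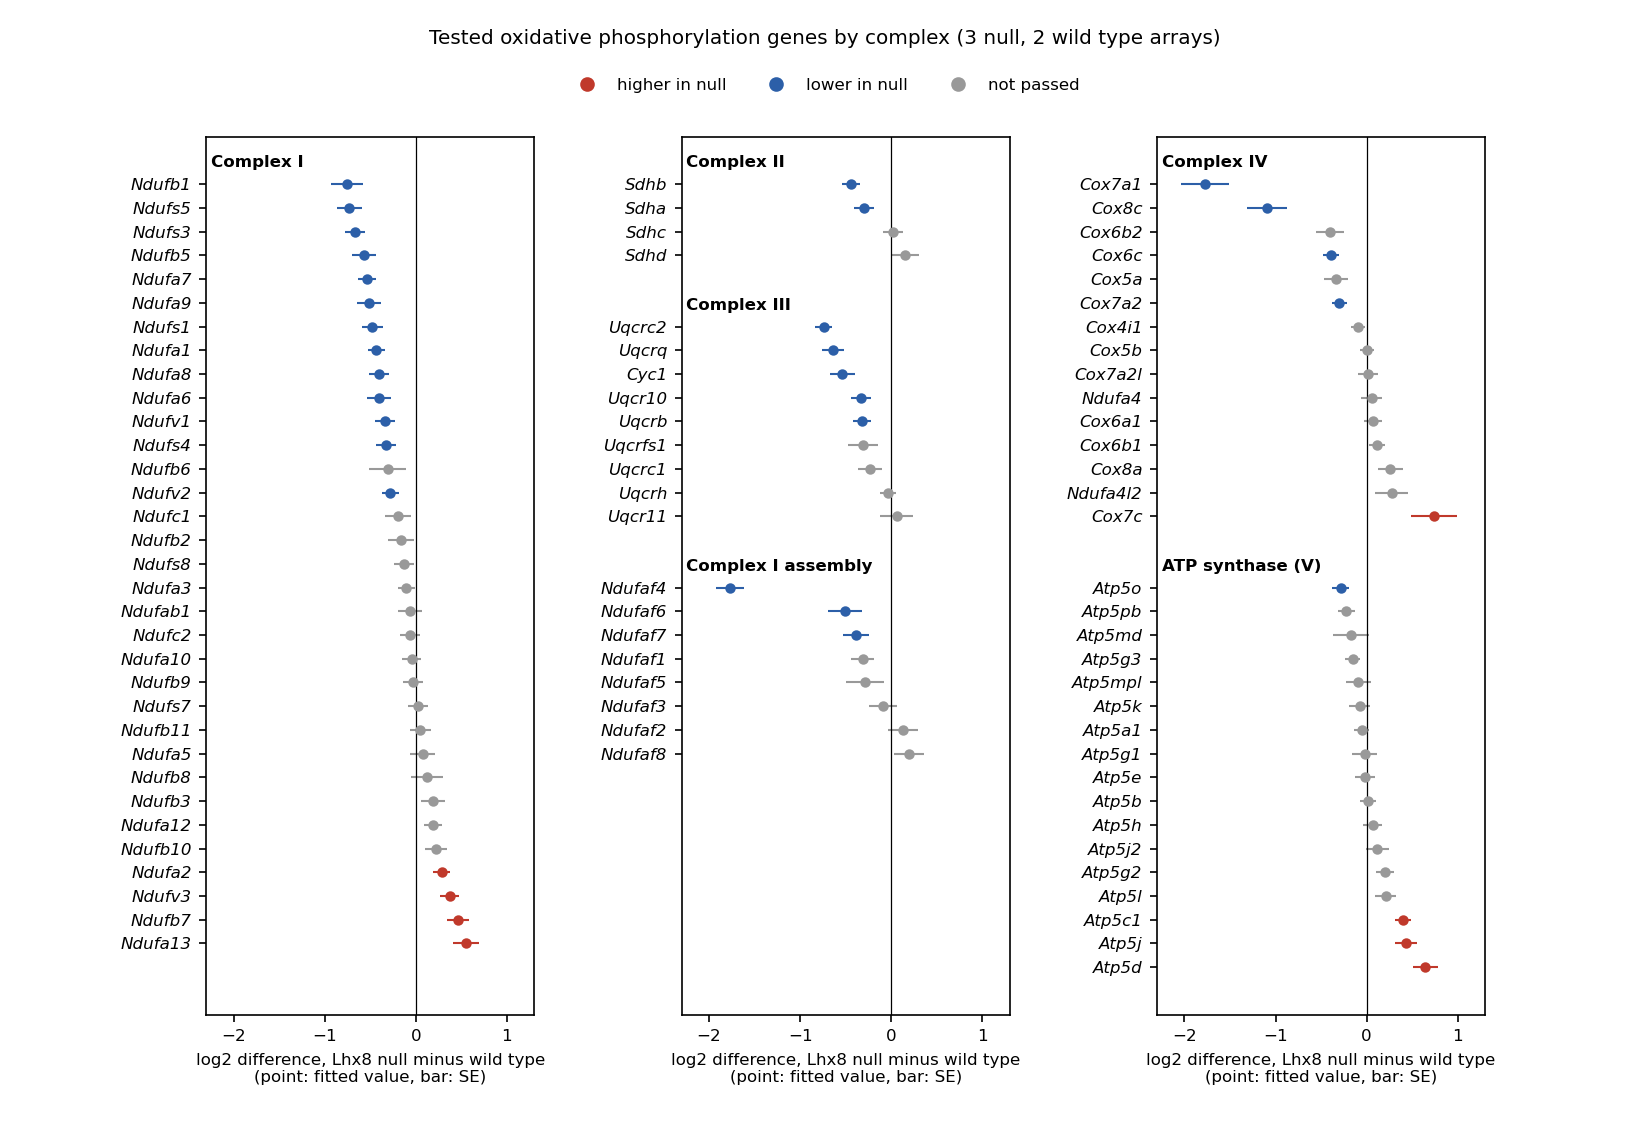
Log2 difference, Lhx8 null minus wild type, of the 86 tested members, ordered within each complex; points are fitted values and bars their SE, from 3 null and 2 wild type arrays. Points left of 0 are lower in null ovaries: complex III and the assembly factors hold no higher call, the ATP synthase genes stay within -0.28 and 0.64, and Cox7a1 and Ndufaf4, both at -1.77, lie farthest out. The null signals of Cox7a1 all lay under the limit for dim genes, so the size of its change is not fixed.

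Calls were followed through 14 alternative settings of scaling, added constant, filter, probe set, variance model, replicate block and arrays left out. Of the 36 called members, 6 kept their call and direction under every setting that gave a value, all lower in null ovaries: Ndufs5, Ndufs3, Sdhb, Uqcrc2, Cox8c and Ndufaf4. None of the 8 higher calls did so. Cox7a1 is not counted among the 6, because all its null signals lay under the limit for dim genes and it could be tested only through its wild type arrays. Cox8c is counted, though its signal in Lhx8 null replicate 3 lay just under that limit. Sign changes under some setting occurred for 3 lower members, Ndufv2, Uqcrb and Cox7a2, and for 1 higher member, Atp5c1.

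The sequence around the start of these genes, Cox7a1 included, is shown, as context for the calls that held and for the isoform with the dimmest null signals among called members, for the 5 that had a window in RefSeq's promoter table of mouse build GRCm38.p6, with the genes Uqcrc2 and Cox8c named only. Each window runs 5′ to 3′ on the gene's strand, from 250 bases before to 50 bases after the start, 300 bases in all. Capitals mark matches, on either strand, to 3 short motifs known from promoters of oxidative phosphorylation genes: CGCANGCG for NRF1, CCGGAAG for the ETS family that includes GABP, and AANATGGCG for YY1. The windows lie at chr2:90904672-90904971 on the minus strand for Ndufs3, chr4:123718137-123718436 on the minus strand for Ndufs5, chr4:140961021-140961320 on the plus strand for Sdhb, chr7:30183921-30184220 on the plus strand for Cox7a1 and chr4:24897833-24898132 on the plus strand for Ndufaf4.
Ndufs3: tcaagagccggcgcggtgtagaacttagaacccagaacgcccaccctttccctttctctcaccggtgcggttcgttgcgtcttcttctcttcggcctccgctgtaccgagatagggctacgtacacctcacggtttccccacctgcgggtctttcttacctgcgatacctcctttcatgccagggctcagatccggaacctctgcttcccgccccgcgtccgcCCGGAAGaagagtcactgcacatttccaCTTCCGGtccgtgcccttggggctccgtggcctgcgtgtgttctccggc
Ndufs5: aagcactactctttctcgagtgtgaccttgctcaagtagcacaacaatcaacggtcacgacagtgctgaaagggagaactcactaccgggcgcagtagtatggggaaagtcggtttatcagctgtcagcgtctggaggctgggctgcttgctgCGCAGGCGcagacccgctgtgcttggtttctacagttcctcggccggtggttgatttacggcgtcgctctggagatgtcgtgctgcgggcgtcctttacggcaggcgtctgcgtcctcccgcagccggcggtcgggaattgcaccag
Sdhb: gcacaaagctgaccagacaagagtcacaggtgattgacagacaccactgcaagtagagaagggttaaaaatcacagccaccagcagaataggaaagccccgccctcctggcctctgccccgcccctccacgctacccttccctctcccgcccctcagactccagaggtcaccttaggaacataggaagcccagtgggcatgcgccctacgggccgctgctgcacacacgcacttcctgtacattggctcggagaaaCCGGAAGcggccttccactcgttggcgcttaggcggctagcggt
Cox7a1: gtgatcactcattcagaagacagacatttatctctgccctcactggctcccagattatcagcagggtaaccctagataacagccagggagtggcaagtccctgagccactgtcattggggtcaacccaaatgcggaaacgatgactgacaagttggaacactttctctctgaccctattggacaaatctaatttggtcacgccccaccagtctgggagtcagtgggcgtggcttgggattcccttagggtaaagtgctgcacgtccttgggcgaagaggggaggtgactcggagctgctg
Ndufaf4: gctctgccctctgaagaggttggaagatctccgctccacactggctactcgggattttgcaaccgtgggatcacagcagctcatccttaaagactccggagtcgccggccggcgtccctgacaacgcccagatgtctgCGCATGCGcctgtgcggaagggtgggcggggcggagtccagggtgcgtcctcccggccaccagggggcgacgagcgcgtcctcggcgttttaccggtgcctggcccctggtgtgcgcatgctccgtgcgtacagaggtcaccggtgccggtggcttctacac
The Ndufs3 window held 2 matches to the ETS motif and the Sdhb window 1, the Ndufs5 and Ndufaf4 windows held 1 match each to the NRF1 motif, and the window of the muscle isoform gene Cox7a1 held no match. A match is a description of letters and not a binding site.

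A promoter window was found for 74 of the 91 members, and 43 of these windows held at least 1 of the 3 motifs, with no overlap between matches to different motifs. The NRF1 motif was in 25 member windows (33.8%), against 8.42% of all 27025 promoters in the table. For the ETS motif the numbers were 18 windows (24.3%) against 9.12%, and for the YY1 motif 8 windows (10.8%) against 2.51%. Split by call, the NRF1 motif was in 1 of 7 windows of higher members, 8 of 20 of lower members and 15 of 44 of members that did not pass. The ETS motif was in 1 of 7, 2 of 20 and 15 of 44 windows of these groups, and the YY1 motif in 0 of 7, 2 of 20 and 6 of 44. The genes for the factors themselves differed in their readout. Nrf1 fell by 0.63 on the log2 scale (adjusted p = 0.0103), with 378, 398 and 374 in null ovaries against 559.8 and 623 in wild type ovaries. Gabpb1, the partner subunit of GABP, fell by 2.27 (adjusted p = 1.8e-05), with 286, 354 and 301 in null against 1553 and 1577 in wild type ovaries, while Gabpa, its DNA-binding subunit, had a difference of 0.13 (adjusted p = 0.55) and Yy1 of 0.11 (adjusted p = 0.406). Gabpa, Yy1 and Nrf1 are given because their motifs were searched, not by the rule that named the other genes.

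**Figure D2:**
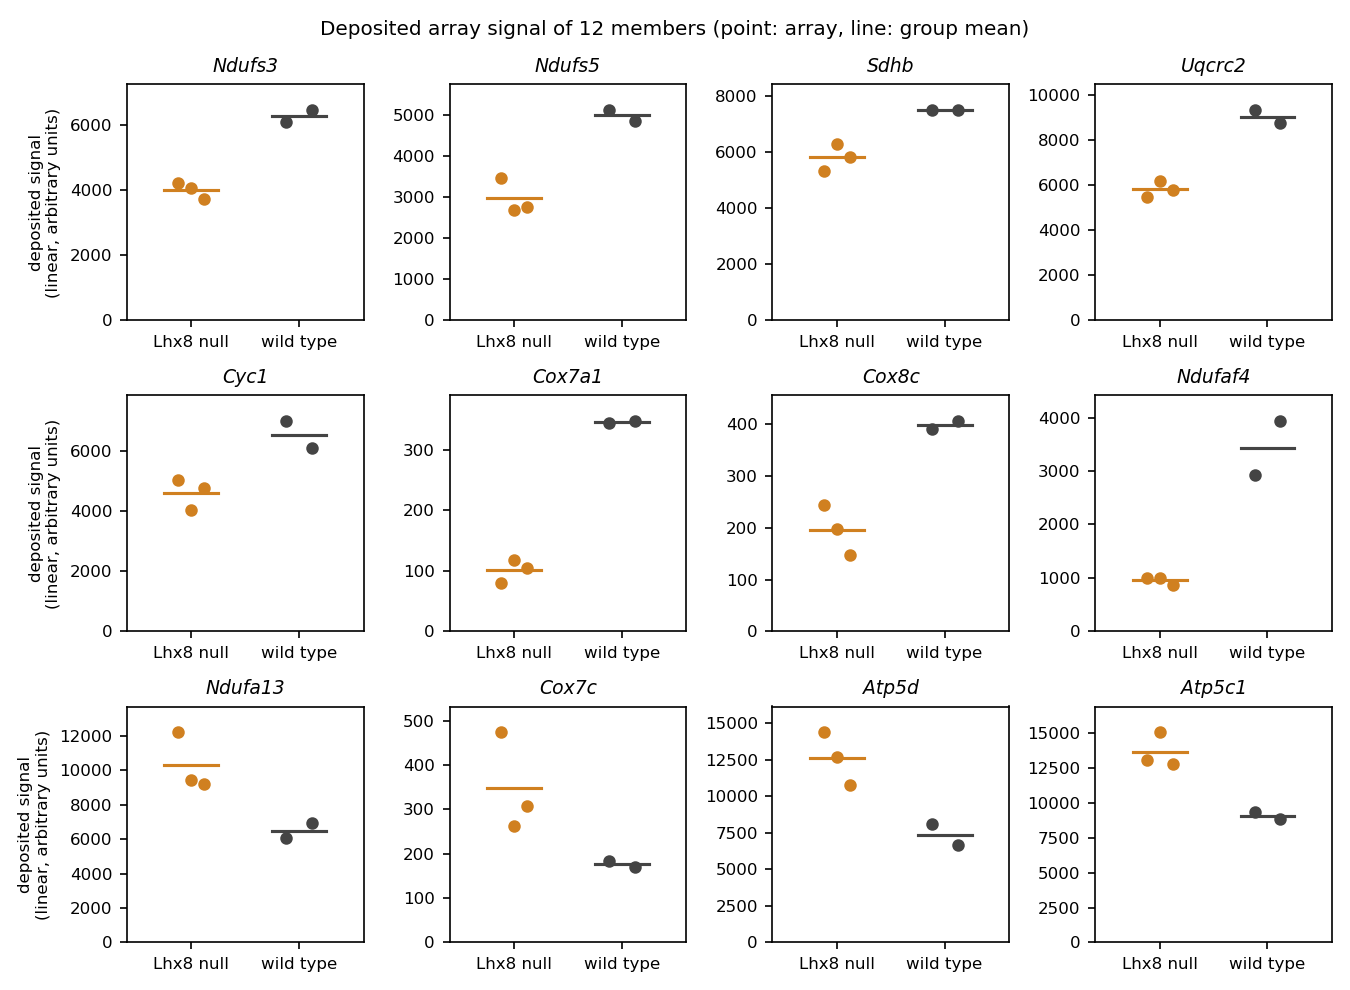
Deposited signal (linear, arbitrary units, axes from 0) of 12 members on the 3 Lhx8 null and 2 wild type arrays; each point is an array and each line a group mean. For the 8 genes of the upper rows every null array lies below both wild type arrays, and for Ndufa13, Cox7c, Atp5d and Atp5c1 every null array lies above them.

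Complex I takes electrons from NADH, and 33 of its 34 genes in the set were tested. In null ovaries 4 rose (12.1%) and 13 fell (39.4%), with a median log2 difference of -0.13. Over all genes tested 25.6% were higher and 22.3% lower. The NADH-oxidising module, the tip of the matrix arm where NADH binds, held 9 genes. Their groups were all separate, 3 with null above and 6 with null below, beside 36% and 31.8% of all genes tested. Of the 9 genes 6 were called lower, 2 were called higher and 1, Ndufa12 at 0.19, did not pass. The lower calls were Ndufs1, which carries iron-sulfur clusters, Ndufv1, the flavin subunit that oxidises NADH, Ndufv2, its iron-sulfur partner, and the accessory subunits Ndufs4, Ndufa6 and Ndufa7. Ndufs1 had a signal of 2056, 2093 and 1928 in null ovaries and 3068 and 2801 in wild type ovaries, a log2 difference of -0.48 (SE 0.12, adjusted p = 0.00953). Ndufv1 measured 4966, 4536 and 4726 in null against 5762 and 6159 in wild type ovaries, -0.34 on the log2 scale (adjusted p = 0.0295). Every null array lay below both wild type arrays for each of them.

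Ndufa7, the lower call of this module with the smallest p, had a signal of 7122, 7066 and 6879 in null ovaries and 8873 and 9986 in wild type ovaries, a log2 difference of -0.54 (SE 0.10, adjusted p = 0.00256). Its other probe sets did not all follow. Of these, 3 lay in the same direction and passed, at -0.56, -0.45 and -0.38, while the fifth, at 1607, 1386 and 1326 in null against 922 and 1159 in wild type ovaries, passed in the other direction at 0.53 (adjusted p = 0.028). Ndufv2 also had probe sets that passed in opposite directions, -0.28 for the brightest (adjusted p = 0.0341) and 0.32 for another (adjusted p = 0.0426). The higher calls of the module were Ndufv3, an accessory subunit beside the flavin site, and Ndufa2, a small accessory subunit. Ndufv3 had 5023, 5009 and 4692 in null ovaries against 3659 and 4041 in wild type ovaries, a log2 difference of 0.37 (SE 0.11, adjusted p = 0.0198). Ndufa2 had 7973, 8282 and 7868 in null against 5962 and 6596 in wild type ovaries, 0.29 on the log2 scale (adjusted p = 0.0345). With arrays centred on their medians neither passed, with adjusted p-values of 0.556 for Ndufv3 and 0.533 for Ndufa2, where adjusted p ranged over all alternatives from 0.0187 to 0.556 and from 0.0189 to 0.533.

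In the quinone-binding module, which carries electrons on to ubiquinone, 2 of 5 genes (40%) fell, beside 22.3% over all genes tested, and none rose. Ndufs3, a core subunit conserved in bacteria, had a signal of 4217, 4072 and 3709 in null ovaries, against 6079 and 6456 in wild type ovaries. That is a log2 difference of -0.66 (SE 0.11, 95% confidence interval -0.92 to -0.41, adjusted p = 0.00124), with every null array below both wild type arrays. Ndufa9, which sits where the matrix arm meets the membrane, differed by -0.51 (adjusted p = 0.0125). The iron-sulfur subunits Ndufs7 at 0.02 and Ndufs8 at -0.13, and the accessory subunit Ndufa5 at 0.08, did not pass, and their groups overlapped.

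In the proton-pumping membrane arm 2 of 18 tested genes rose (11.1%) and 5 fell (27.8%), beside 25.6% and 22.3% over all genes tested. Ndufa13, also known as GRIM-19 and needed for complex I assembly, had 12249.8, 9417 and 9223 in null ovaries, against 6056 and 6956 in wild type ovaries (log2 difference 0.55, SE 0.14, adjusted p = 0.0112). Ndufb7 measured 7241, 6418 and 6008 in null and 4700 and 4769.7 in wild type ovaries (0.46, SE 0.12, adjusted p = 0.012), although its other probe set did not pass at 0.15. All null arrays lay above the wild type arrays for both genes. The lower calls were Ndufb1, Ndufs5, Ndufb5, Ndufa1 and Ndufa8, accessory subunits of the arm. Ndufs5 had 3479.8, 2687 and 2763 in null ovaries and 5131 and 4862 in wild type ovaries, a log2 difference of -0.73 (SE 0.14, adjusted p = 0.00275). Ndufb1 showed a like shift, 455, 323 and 365 in null against 639.6 and 637 in wild type ovaries (-0.76, adjusted p = 0.00692). Ndufa1, whose loss abolishes complex I in hamster cells, differed by -0.43 (adjusted p = 0.00488), but by -0.24 with the deposited scaling, where it did not pass (adjusted p = 0.0744, over all alternatives from 0.000656 to 0.0744). The differences of the others were, for Ndufb5, -0.57 (adjusted p = 0.00707) and, for Ndufa8, -0.40 (adjusted p = 0.0175). The second probe set of Ndufb5 stood at 0.05 (adjusted p = 0.706). The member Ndufb4 was not tested, its signals being 23.3, 26 and 29.2 in null and 40.5 and 33.3 in wild type ovaries, below the limit of about 150 used for dim genes.

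The complex I counts moved when an array was left out. Without wild type replicate 3 there were 2 higher and 5 lower calls, without wild type replicate 2 there were 0 and 8, without Lhx8 null replicate 3 there were 3 and 8, and without Lhx8 null replicate 2 there were 2 and 9. Ndufs3, Ndufs5 and Ndufa7 passed with each array left out. Without wild type replicate 2 the calls of Ndufa13 (adjusted p = 0.0966), Ndufv3 (0.104), Ndufb7 (0.0617) and Ndufs1 (0.0652) were lost, and without wild type replicate 3 those of Ndufb1 (0.0562), Ndufb5 (0.0534) and, again, Ndufb7 (0.063). Over all alternatives adjusted p ranged from 0.00341 to 0.0966 for Ndufa13, from 0.00935 to 0.193 for Ndufb7, from 0.00156 to 0.0652 for Ndufs1, from 0.000496 to 0.0562 for Ndufb1 and from 0.00333 to 0.085 for Ndufb5. The calls of Ndufa6, Ndufa8, Ndufa9, Ndufs4, Ndufv1 and Ndufv2 were lost without wild type replicate 3, with adjusted p-values from 0.0809 for Ndufa9 to 0.246 for Ndufa6. Those of Ndufa8, Ndufa9, Ndufs4, Ndufv1 and Ndufv2 were also lost without wild type replicate 2, those of Ndufa6, Ndufs4, Ndufv1 and Ndufv2 without Lhx8 null replicate 2, and those of Ndufa6, Ndufa8, Ndufs4, Ndufv1 and Ndufv2 without Lhx8 null replicate 3. Ndufv3 also lost its call without Lhx8 null replicate 2 (adjusted p = 0.0638), and Ndufa2 without any array but Lhx8 null replicate 1, with up to 0.151 without wild type replicate 2. With the mean of a gene's probe sets in place of the brightest, Ndufa7 (adjusted p = 0.0556, over all alternatives from 0.00027 to 0.0556), Ndufb5 (0.085), Ndufb7 (0.068), Ndufs4 (0.368) and Ndufv2 (0.566) did not pass, and Ndufv2 stood at 0.07.

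Complex II oxidises succinate and is also an enzyme of the citric acid cycle. Of its 4 genes 2 fell (50%), beside 22.3% over all genes tested. These were Sdhb and Sdha, the catalytic subunits in the matrix, and the 2 membrane anchors did not pass. Sdhb, the iron-sulfur subunit, had a signal of 5337, 6280.4 and 5843 in null ovaries, against 7512 and 7517 in wild type ovaries (log2 difference -0.44, SE 0.10, 95% confidence interval -0.66 to -0.22, adjusted p = 0.00496). Sdha, the flavin subunit that binds succinate, had 5382, 5609 and 5175 in null ovaries and 6806 and 6090 in wild type ovaries (-0.30, SE 0.11, adjusted p = 0.0453). Every null array lay below both wild type arrays for the 2 genes, but Sdha sat close to the threshold and another of its probe sets stood at 0.28 (adjusted p = 0.0941).

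The anchor Sdhc had 3747, 4532 and 4109.5 in null ovaries against 4129 and 4126 in wild type ovaries, a log2 difference of 0.02 with a 95% confidence interval of -0.23 to 0.27 (adjusted p = 0.912). For the anchor Sdhd the values were 2581, 3135 and 2809.9 in null and 2293 and 3022 in wild type ovaries, 0.16 with an interval of -0.18 to 0.49 (adjusted p = 0.41). The groups overlapped for both anchors. Whether catalytic and anchor subunits differ was not tested. The call of Sdhb held with each array left out, while Sdha lost its call without Lhx8 null replicate 2 (adjusted p = 0.105), without Lhx8 null replicate 3 (0.146) and without wild type replicate 2 (0.223), which left 1 lower call in the complex. Sdha passed in 7 of the 14 alternative settings, with adjusted p from 0.0149 to 0.908.

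Complex III, the cytochrome bc1 complex, had no higher call: 5 of its 9 genes fell (55.6%), and the median log2 difference was -0.32. Over all genes tested 25.6% were higher and 22.3% lower. Uqcrc2, a core subunit that holds the complex together, had a signal of 5464, 6162 and 5796 in null ovaries, against 9342 and 8740 in wild type ovaries. Its log2 difference was -0.74 (SE 0.09, 95% confidence interval -0.95 to -0.53, adjusted p = 0.000283). A second probe set of Uqcrc2 was lower in every null array too, 6397, 5706 and 5063 in null against 6588 and 6512 in wild type ovaries, but at -0.25 did not pass (adjusted p = 0.152). Cyc1, cytochrome c1, which hands electrons to cytochrome c, had 5036, 4047 and 4764 in null ovaries and 7020.3 and 6102 in wild type ovaries (-0.54, SE 0.14, adjusted p = 0.011). Uqcrq, a small subunit near the quinone site, had 2904, 2599 and 2611 in null ovaries, against 4006 and 4638 in wild type ovaries (-0.64, SE 0.12, adjusted p = 0.00251). For these 3 genes no null array reached the lower wild type array. With the mean of a gene's probe sets Uqcrq stood at -0.07 and did not pass (adjusted p = 0.817, over all alternatives from 0.000266 to 0.817), its other 3 probe sets all being under the limit for dim genes.

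The small subunits Uqcr10 and Uqcrb also fell, at -0.33 (adjusted p = 0.0376) and -0.32 (adjusted p = 0.0273). Uqcrb shows the weight of scaling at bright probe sets: its deposited signal was 21533, 23729 and 22532 in null ovaries and 19972 and 21313 in wild type ovaries, higher in null, and its difference was 0.13 with the deposited scaling (adjusted p = 0.306, over all alternatives from 0.00895 to 0.522). Of the other members, Uqcrfs1, the Rieske iron-sulfur protein, had -0.31, Uqcrc1, the other core subunit, -0.23, Uqcrh, the hinge protein, -0.04 and Uqcr11 0.06, and none of these passed. Counts of lower calls were 3 without Lhx8 null replicate 2, without wild type replicate 2 and without wild type replicate 3. Cyc1 lost its call without wild type replicate 2 (adjusted p = 0.093, over all alternatives from 0.000593 to 0.093). Uqcr10 and Uqcrb each lost theirs without Lhx8 null replicate 2 (adjusted p = 0.13 for Uqcr10 and 0.0628 for Uqcrb) and when wild type replicate 3 was omitted (0.166 for Uqcr10 and 0.22 for Uqcrb), and Uqcr10 also without Lhx8 null replicate 3 (0.12) or wild type replicate 2 (0.0818).

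Complex IV, cytochrome c oxidase, contained the widest range of differences. Of its 19 genes 15 were tested, 1 rose (6.67%) and 4 fell (26.7%), with a median of 0.00, beside 25.6% and 22.3% over all genes tested. The 4 that were too dim to test were all isoforms with a restricted tissue range. Among the 10 common subunits, 1 rose and 2 fell. Among the 4 tested restricted isoforms, 2 fell and none rose, and the null and wild type arrays overlapped for none of them. Null lay above for 1 and below for 3, beside 36% and 31.8% of all genes tested. Of the 2 restricted isoforms called lower, Cox7a1 had all its null signals under the limit for dim genes and was tested only through its wild type arrays.

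Cox7a1, the isoform of heart and skeletal muscle, had a signal of 80.7, 118 and 105 in null ovaries, against 345 and 348 in wild type ovaries. All 3 null signals lay under the limit for dim genes, with no background measured, so the gene entered the test through its wild type arrays and the size of its change is not fixed by these data. The fitted log2 difference was -1.77 (adjusted p = 0.000684), and it moved to -1.93 with an added constant of 1 and to -1.42 with 64 (adjusted p over all alternatives from 0.000123 to 0.0176). Of 10 markers of skeletal muscle 7 were too dim to test, and 2 of the other 3 were called higher in null ovaries, beside 25.6% of all genes tested. The summed signal of the 10 markers was 1242, 779 and 3656 in null ovaries and 550 and 545 in wild type ovaries. Those 2 calls became 1 without Lhx8 null replicate 3 or wild type replicate 2 and 0 without wild type replicate 3. Markers of brown fat, another tissue known to use Cox7a1, summed to 125, 177 and 101 in null and 141 and 66.7 in wild type ovaries, and none was bright enough to test. The part of either tissue in the Cox7a1 values was not tested. The common partner Cox7a2 had 18674, 19379 and 18624 in null ovaries and 17604 and 17940 in wild type ovaries, and its normalised difference of -0.30 (adjusted p = 0.0146) turned to 0.09 with the deposited scaling (adjusted p = 0.468, over all alternatives from 0.00707 to 0.468).

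Cox8c, known as a testis isoform of subunit VIII, had 244, 197 and 147 in null ovaries, against 390 and 406 in wild type ovaries (log2 difference -1.09, SE 0.22, 95% confidence interval -1.60 to -0.58, adjusted p = 0.00374). The signal of Cox8c in Lhx8 null replicate 3 lay just under the limit for dim genes. Its other probe set lay far under that limit, at 4.5 to 48.7, so the size of the change is uncertain. Its common partner Cox8a had 4689.7, 4227 and 4452 in null and 3365 and 4278 in wild type ovaries (0.26, adjusted p = 0.136). The gap, the difference of Cox8c minus that of Cox8a, was -1.35 (exact permutation p = 0.1, two-sided, the smallest that 3 and 2 arrays allow). Cox6b2, also a testis isoform, had 1843, 1769 and 1557 in null ovaries and 2068 and 2728 in wild type ovaries. At -0.40 it did not pass (adjusted p = 0.0569), although every null array lay below both wild type arrays. Cox6b1, its common partner, had a difference of 0.11 (adjusted p = 0.304), a gap of -0.51 (exact permutation p = 0.1). The third testis isoform, Cox7b2, was too dim to test, with 80.7, 34.4 and 53 in null against 191 and 172 in wild type ovaries. Without the filter on dim genes its difference was -1.72 (adjusted p = 0.00595). All null signals of Cox7b2 lay under the limit for dim genes, with no background measured, so the size of its difference is not fixed by these data. These isoforms are known from male germ cells, and the germ cell markers fell in the same null ovaries, with log2 differences from -4.91 to -1.81. How far that accounts for the isoforms was not tested.

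The hypoxia-induced Ndufa4l2, a paralogue of the complex IV subunit Ndufa4, had 359.7, 306 and 333 in null ovaries and 274 and 227 in wild type ovaries (0.28, adjusted p = 0.24), with every null array above the wild type arrays. Ndufa4 had 0.05 (adjusted p = 0.719), and the gap between the paralogues was 0.22 (exact permutation p = 0.3). The remaining dim isoforms were Cox4i2, of lung and airway, with 74.6, 122 and 59.9 in null and 74.6 and 119.9 in wild type ovaries, and the heart and skeletal muscle isoforms Cox6a2, with 106, 101 and 99 against 108 and 59.4, and Cox8b, with 4.8, 2.8 and 5.6 against 3.3 and 44.4. Null and wild type arrays overlapped for all 3.

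Among the common subunits, Cox7c rose, with 475, 262 and 307 in null ovaries against 184 and 169 in wild type ovaries (0.74, SE 0.25, adjusted p = 0.0365). The other common subunits were far brighter, the dimmest being Cox8a at 3365 to 4690. The wild type signals of Cox7c lay close above the limit of about 150 for dim genes, and its other probe set lay under it, at 70.5 to 114.5. Lhx8 null replicate 1 stood above the other null arrays for this gene, and without it the call was lost (adjusted p = 0.0599), as it was without Lhx8 null replicate 3 (0.0504), wild type replicate 2 (0.119) or wild type replicate 3 (0.17), in a range over all alternatives from 0.0188 to 0.17. Cox6c had nearly equal deposited signals, 16408, 15764 and 15087 in null and 15727 and 16410 in wild type ovaries. Its normalised difference of -0.39 passed (SE 0.09, adjusted p = 0.00611), and with the deposited scaling it was -0.03 (adjusted p = 0.83, over all alternatives from 0.00066 to 0.83). Without wild type replicate 3 the complex had 2 lower calls, since Cox6c (adjusted p = 0.0621) and Cox7a2 (0.105) were lost, and without Lhx8 null replicate 2 it had 3 (Cox7a2, adjusted p = 0.0614). Cox4i1, the subunit that binds ATP as a regulator, had -0.09 with an interval of -0.27 to 0.08, Cox6a1 0.07, Cox5a -0.33 and Cox5b 0.00, and these did not pass. The supercomplex factor Cox7a2l had 0.02 at its brightest probe set (adjusted p = 0.913), while 2 other probe sets passed at 0.45 and 0.38.

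Of the 17 ATP synthase genes, all tested, 3 rose (17.6%) and 1 fell (5.88%), with a median of -0.02, beside 25.6% higher and 22.3% lower over all genes tested. In the F1 part, where ATP is made, Atp5d and Atp5c1 rose and no gene fell. Atp5d, subunit delta of the rotor, had 14429.8, 12686 and 10781 in null ovaries against 8093 and 6680 in wild type ovaries (0.64, SE 0.14, 95% confidence interval 0.33 to 0.95, adjusted p = 0.00447), and its second probe set rose too, at 0.50. Both probe sets of Atp5d have names marked _s_, which can also detect transcripts of related genes. The setting without such probe sets therefore gave no value for Atp5d. Atp5c1, subunit gamma, the rotor's shaft, had 13057, 15118 and 12799 in null ovaries, against 9331 and 8854 in wild type ovaries (0.40, SE 0.09, adjusted p = 0.00605). Its second probe set was far dimmer, with 238, 173 and 126 in null against 174.5 and 143 in wild type ovaries, and stood at -0.07 (adjusted p = 0.86). With arrays centred on their medians Atp5c1 did not pass (adjusted p = 0.0882, over all alternatives from 0.00145 to 0.854). Null arrays lay above wild type arrays throughout for both genes at the probe set used.

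The catalytic and structural F1 subunits Atp5a1 (alpha), Atp5b (beta) and Atp5e (epsilon) had differences of -0.06, 0.02 and -0.02, with 95% confidence intervals of -0.25 to 0.14, -0.18 to 0.21 and -0.27 to 0.23, and did not pass. In the stalk and membrane part 1 of 9 genes rose and 1 fell. Atp5j, coupling factor F6, had 10339.5, 9969 and 8708 in null ovaries and 6142 and 7248 in wild type ovaries (0.43, SE 0.12, adjusted p = 0.0163). Atp5o, the OSCP subunit that ties the stalk to the F1 head, had 9886, 11511 and 9679 in null against 11394 and 11029.7 in wild type ovaries (-0.28, SE 0.09, adjusted p = 0.0343). In deposited signal 1 of the null arrays exceeded both wild type arrays, and the groups separated only after normalization.

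Subunit c, which forms the rotating ring in the membrane, is encoded by 3 genes whose mature protein is the same. Atp5g1 had 4024, 3729.9 and 3524 in null and 3428 and 4424 in wild type ovaries (-0.02, adjusted p = 0.917). Atp5g2 had 9347, 9098 and 8356 in null and 6978 and 7383 in wild type ovaries (0.20, adjusted p = 0.128), and Atp5g3 had 18591, 17683 and 16564 in null and 15393 and 15382 in wild type ovaries (-0.15, adjusted p = 0.155). None of the 3 passed. Without wild type replicate 2 Atp5j (adjusted p = 0.129) and Atp5o (0.118) lost their calls, without wild type replicate 3 Atp5d (0.0615) and Atp5o (0.115), without Lhx8 null replicate 2 Atp5j (0.0504) and without Lhx8 null replicate 3 Atp5o (0.112). With median centring Atp5j (0.118) and Atp5o (0.069) did not pass, and with the deposited scaling Atp5o did not (0.412). Over all alternatives adjusted p ranged from 0.00652 to 0.129 for Atp5j, from 0.000208 to 0.0615 for Atp5d and from 0.0266 to 0.412 for Atp5o.

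Of the 8 Ndufaf assembly factors of complex I, 3 fell (37.5%) and none rose, with a median of -0.30. The shares over all genes tested were 22.3% lower and 25.6% higher. Ndufaf4, which works with Ndufaf3 early in building the matrix arm, had 1007, 994 and 863 in null ovaries, against 2932 and 3939 in wild type ovaries. Its log2 difference of -1.77 (SE 0.16, 95% confidence interval -2.12 to -1.41, adjusted p = 4.24e-05) was the smallest p of the set, and a second probe set fell by 0.64 (adjusted p = 0.013), with 417, 473 and 489 in null and 715 and 727 in wild type ovaries. Ndufaf3 itself had 676, 625 and 574 in null and 628 and 702 in wild type ovaries (-0.09, adjusted p = 0.656). Ndufaf7, a methyltransferase that modifies a core subunit, had 694, 771 and 746 in null ovaries against 946 and 1037 in wild type ovaries (-0.39, SE 0.14, adjusted p = 0.0481). Ndufaf6 had 386, 382 and 305 in null ovaries against 448 and 553 in wild type ovaries (-0.51, SE 0.19, adjusted p = 0.0488). Every null array lay below both wild type arrays for the 3 lower genes. Ndufaf4 passed with each array left out. Ndufaf7 lost its call when any 1 of the 5 arrays was left out, and Ndufaf6 for any but Lhx8 null replicate 1, so that 1 lower call stayed in each of those cases and 2 without Lhx8 null replicate 1. Adjusted p ranged over all alternatives from 0.00796 to 0.22 for Ndufaf7 and from 0.0108 to 0.301 for Ndufaf6.

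Several probe sets measured the same gene for 51 members, which gave a check on single calls. Beside the brightest probe set, 43 genes had another above the limit for dim genes, 62 in all. Both were called in the same direction for 7 of these and in opposite directions for 2, the probe sets of Ndufa7 and Ndufv2 given above. Of the 7 in the same direction, 3 belonged to Ndufa7 and the rest to Atp5d, Ndufaf4, Ndufs4 and Uqcr10. Of the 62, the brightest alone passed for 14, the other alone for 7, and neither for 32. Those where the other alone passed belonged to Atp5pb (-0.67), Cox5b (-0.39), Ndufb6 (-0.40), Ndufc2 (-0.44) and Ndufs7 (-0.45), all lower in null ovaries, and to Cox7a2l, both higher. Of the probe sets used for tested members, 19 have names marked _s_ or _x_, which can also detect transcripts of related genes. Among the called members these served Ndufa2, Ndufa13, Cox7c, Atp5c1 and Atp5d, all higher, and Ndufv1, Uqcrq and Ndufaf7, all lower. Without such probe sets 3 of the 8 higher calls and 25 of the 28 lower calls stayed. Near-identical copies, such as processed pseudogenes, could add to such signals and were not separated here.

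**Figure D3:**
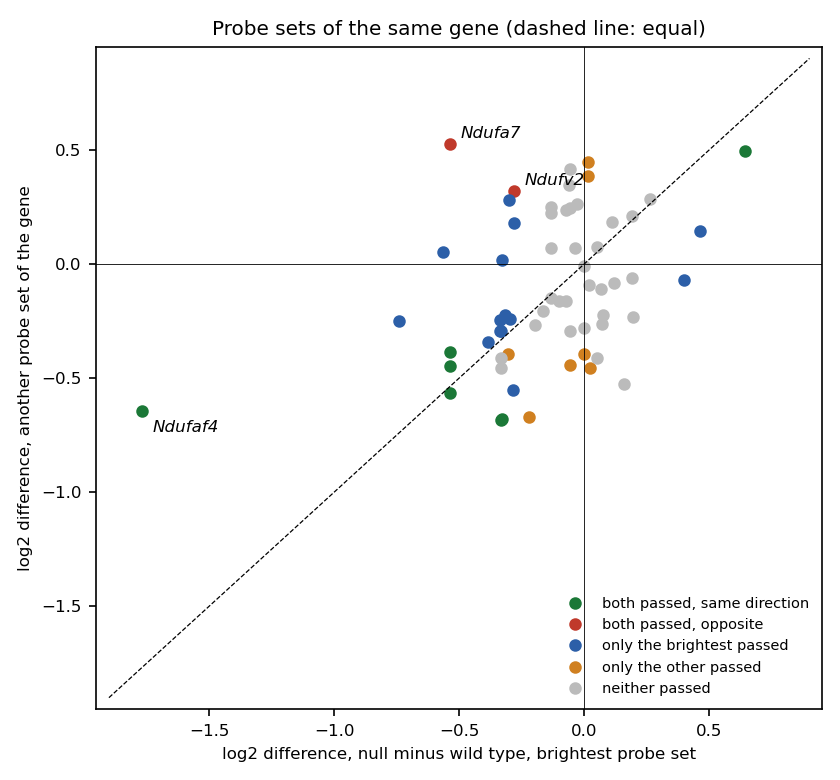
Log2 difference, Lhx8 null minus wild type, of the brightest probe set of a gene (horizontal) against each other probe set of that gene above the limit for dim genes (vertical), 62 probe sets of 43 genes, coloured by which of the 2 passed. The 7 green points passed in the same direction, with Ndufaf4 at -1.77 and -0.64, and the 2 red points, Ndufa7 and Ndufv2, passed in opposite directions.

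The shift between scalings varied with the mean normalised log2 level. With the deposited scaling in place of quantile normalization, the median change of the difference was 0.19 over the 26 tested members at a level of 13 or more, 0.03 over 36 from 12 to 13, -0.04 over 14 from 10 to 12 and 0.06 over the 10 dimmer ones. Against quantile normalization, the deposited scaling moved Uqcrb from -0.32 to 0.13 and Cox7a2 from -0.30 to 0.09, while Ndufs3 stayed at -0.65 beside -0.66 and Ndufaf4 at -1.82 beside -1.77. For 12 tested members the mean deposited signal was higher in null ovaries while the mean normalised level was lower, and 2 of them, Uqcrb and Cox7a2, were called lower. The other 10 were Ndufa3, Ndufc2, Ndufb9, Uqcrh, Cox4i1, Atp5pb, Atp5g3, Atp5k, Atp5a1 and Atp5e, and none passed. Ndufs7 was the only tested member with the opposite change of sign, at deposited means of 4262 ± 191 in null and 4263 ± 194 in wild type ovaries (SD, n = 3 and 2).

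**Figure D4:**
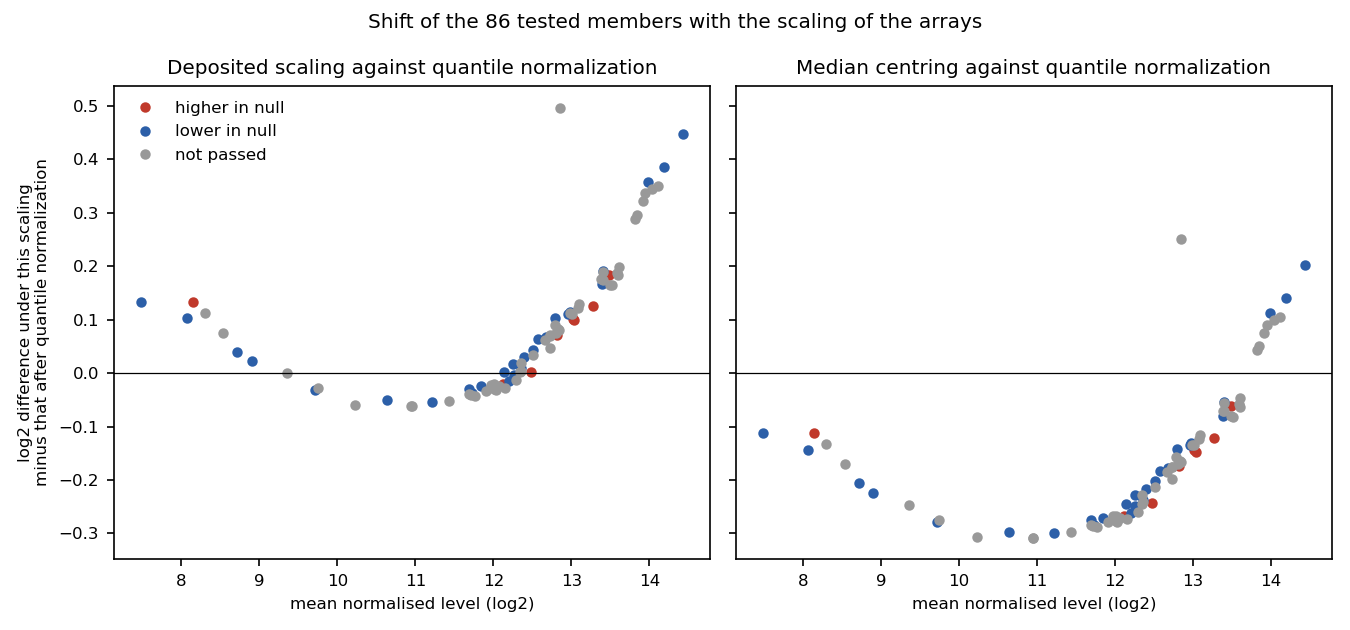
Change in the log2 difference of each tested member when arrays keep the deposited scaling (left) or are centred on their medians (right) in place of quantile normalization, against the mean normalised log2 level. In both panels the members at levels of 13 or more have higher shifts than those from 10 to 12; the point that stands apart in each panel is Cox7a2l, whose brightest probe set changed with the scaling, so that its difference was 0.02 after quantile normalization and 0.51 with the deposited scaling.

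Genes that serve the same pathway were described from lists taken from general knowledge. Their counts stand beside 25.6% called higher and 22.3% called lower over all genes tested. Of 38 tested assembly factors and cytochrome c genes outside the member set, 4 rose and 14 fell, with a median of -0.35. Cyct, the testis cytochrome c, had 182, 219 and 289 in null ovaries, against 899 and 939 in wild type ovaries (a normalised null level 0.249 times that of wild type, adjusted p = 0.000201), while the somatic Cycs stood at -0.34 (adjusted p = 0.0746). Nubpl, which supplies iron-sulfur clusters to complex I, fell by 1.04 (adjusted p = 0.000367). Cox20, an assembly factor of complex IV, rose by 0.89 (adjusted p = 0.000679) and Sdhaf1, of complex II, by 0.63 (adjusted p = 0.00501).

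In the citric acid cycle and pyruvate dehydrogenase, 3 of 17 genes rose and 7 fell, with a median of -0.18. Isoforms of the isocitrate step parted: the NAD-dependent Idh3a had 1908, 2151 and 2207 in null ovaries against 5336 and 5465 in wild type ovaries (-1.34, adjusted p = 3.36e-05), and the NADP-dependent Idh2 had 5050.4, 5144 and 4789 in null ovaries, against 2498 and 2473 in wild type ovaries (1.04, adjusted p = 0.000101). Pdha1, a catalytic subunit of pyruvate dehydrogenase, rose by 1.02 (adjusted p = 0.000373), and Dld, a subunit shared with other dehydrogenases, fell by 0.85 (adjusted p = 0.000446). Of 13 mitochondrial carriers and porins 4 rose and 3 fell, with a median of 0.22. Slc25a31, an ADP/ATP carrier of germ cells in the mouse, had 814, 884 and 1386 in null ovaries against 5866 and 5968 in wild type ovaries (-2.55, adjusted p = 3.14e-05), the porin Vdac3 fell by 0.82 (adjusted p = 0.000262), the dicarboxylate carrier Slc25a10 rose by 0.59 (adjusted p = 0.0133) and the aspartate/glutamate carrier Slc25a12 by 0.50 (adjusted p = 0.0145). Without wild type replicate 3 no carrier passed as higher, and without Lhx8 null replicate 2 only 1 did; the call of Slc25a10 was also lost without wild type replicate 2 and that of Slc25a12 without Lhx8 null replicate 3. Lower calls among assembly factors were 8 without wild type replicate 3.

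Of 19 genes for mitochondrial DNA upkeep and its regulators 2 rose and 5 fell, with a median of -0.24. Beside Gabpb1, given above, Mterf4, needed to build mitochondrial ribosomes, fell by 0.99 (adjusted p = 0.000697), while the coactivator Ppargc1b rose by 0.93 (adjusted p = 0.0086) and the topoisomerase Top1mt by 0.61 (adjusted p = 0.0234). With wild type replicate 3 left out both higher calls were lost (adjusted p = 0.074 for Ppargc1b and 0.0884 for Top1mt) and 3 lower calls stayed, and Top1mt was lost without Lhx8 null replicate 2, Lhx8 null replicate 3 or wild type replicate 2, leaving 1 higher call each time. Tfam, which packages mitochondrial DNA, had -0.27 (adjusted p = 0.161). In glycolysis and lactate handling 11 of 17 genes rose and 1 fell, with a median of 0.57. Aldoc had 1066, 1353 and 1110 in null ovaries against 332 and 398 in wild type ovaries (1.62, adjusted p = 0.0001), and Tpi1 rose by 0.77 (adjusted p = 0.000392). The lower gene was Ldhb, the lactate dehydrogenase subunit that favours making pyruvate, with 4339, 4795 and 4556 in null ovaries and 11224 and 11283 in wild type ovaries (-1.42, adjusted p = 1.08e-05). Differences between these lists and the oxidative phosphorylation genes were not tested, and the shifts in germ cell, granulosa and stromal markers stand beside all of them.

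**Figure D5:**
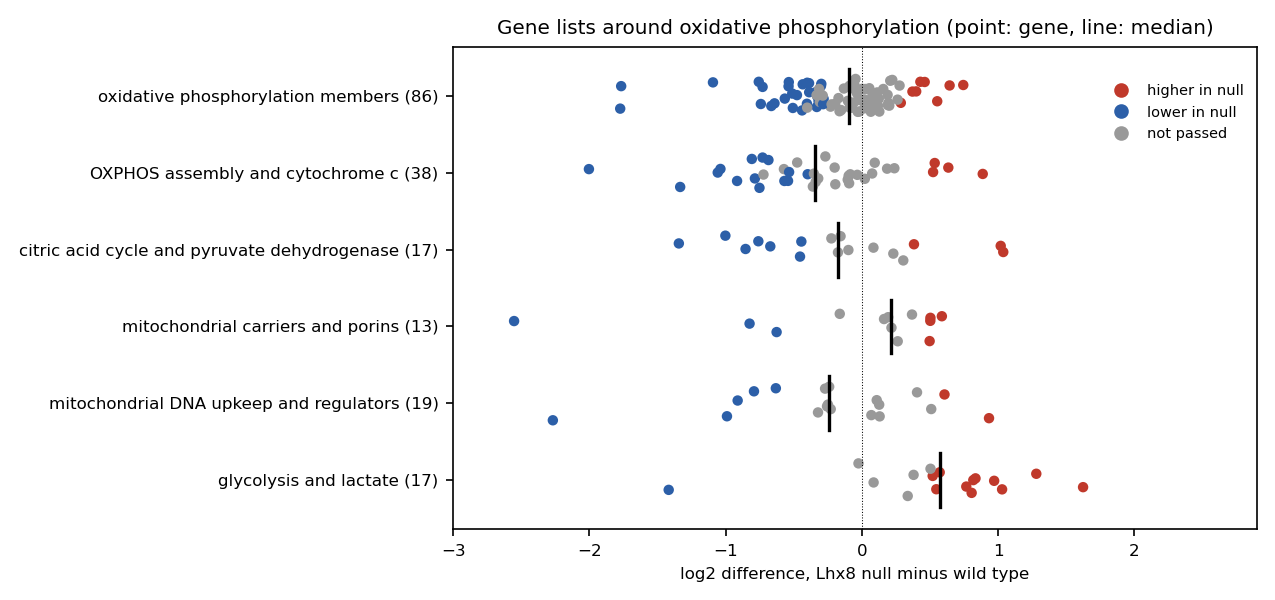
Log2 difference, Lhx8 null minus wild type, of the tested members and of the tested genes of 5 lists around the pathway; each point is a gene, each black line a list's median, and numbers in brackets are genes tested. The members' median is -0.09 and that of glycolysis and lactate genes 0.57, with assembly factors at -0.35 and mitochondrial DNA genes at -0.24.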

How the data were processed

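The authors deposited 1 linear intensity per probe set and array, from biotin-labelled target per the labels' protocols. The software GCOS is named for the wild type arrays per the submitters' processing notes; for the null arrays no source used here names any. The 2% trimmed mean was 500 on each array, so the deposited intensities had been scaled. Symbols came from the platform annotation: of 45101 probe sets 34945 carried 1 symbol, 932 several and 9160 none, besides 64 controls that were dropped, and 34741 matched RefSeq, which changed 0 symbols. No genome build underlies the array values. Only the promoter windows carry coordinates.

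Groups came from the labels' titles. Values were put on the scale log2(signal + 16) and the arrays were quantile normalised (limma 3.58.1, R 4.3.3). The brightest probe set stood for each gene, and the dimmest 40% of genes (7277, below a log2 level of 7.37) were left out. All 5 arrays were fitted with lmFit and eBayes with a variance trend, two-sided, with Benjamini-Hochberg adjustment over 10916 genes at a threshold of 0.05. The code was tested on simulated data. Isoform pairs were compared with an exact permutation test over arrays. Members, complexes, gene lists and motifs were chosen with earlier results of these data known. Named genes were, per complex, up to 3 in each direction with the smallest p among calls whose arrays do not overlap, all of complex II, Cyc1, isoform pairs, subunit c, and up to 2 per list and direction (marker lists are given by counts). Other genes named with values beyond this rule were chosen after their values were seen. Alternatives changed the scaling, the added constant (1 or 64), the filter, the probe set, the variance trend, the replicate block and the arrays used. Wild type replicate 1 was not analysed here. Figures used matplotlib 3.10.9.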

Additional observations from a re-analysis of the deposited data

How the results depend on the processing

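The main counts were 8 higher and 28 lower members with a median log2 difference of -0.09. Higher calls numbered 3 with median centring, 14 with the deposited scaling and 5 with the mean of a gene's probe sets. They numbered 4 without _s_ and _x_ probe sets and 5 without the variance trend, which left 18 lower calls. With each probe set tested the unit was the probe set and not the gene, and 13 of 148 member probe sets were higher and 36 lower. The median was -0.25 with median centring, -0.0020 with the deposited scaling and -0.16 without _s_ and _x_ probe sets. By complex, median centring gave 1 higher call in complex I, 1 in complex V and 0 lower in complex V. The deposited scaling gave 1 lower in complex II, 5 higher in complex IV and 5 higher and 0 lower in complex V. Without the filter there were 1 lower assembly factor, 1 lower in complex II, 0 higher in complex IV and 0 lower in complex V. The mean of probe sets gave 1 lower in complex II, 3 lower in complex III and 0 higher in complex IV. Without _s_ and _x_ probe sets there were 2 higher in complex I, and 1 higher and 2 lower in complex V. Without the variance trend there were 2 higher in complex I, 1 lower in complex II, 3 lower in complex III and 0 lower in complex V. Arrays left out 1 at a time gave 2 to 7 higher and 13 to 28 lower calls and medians from -0.18 to -0.048, with 0 to 4 higher and 5 to 13 lower in complex I, 1 to 2 lower in complex II, 3 to 5 lower in complex III, 0 to 1 higher and 2 to 5 lower in complex IV, 0 to 1 lower in complex V and 1 to 2 lower assembly factors. Where a wild type array was left out, the lone wild type array was assumed to vary like the null arrays. Called members that changed sign were Uqcrb, at 0.13 with the deposited scaling, and Ndufv2, at 0.07 with the mean of its probe sets. Atp5c1 did so too, at -0.069 without _s_ and _x_ probe sets (adjusted p = 0.854, over alternatives from 0.00145 to 0.854), where only its far dimmer second probe set was left. Cox7a2 stood at 0.088 with the deposited scaling (adjusted p = 0.468, over alternatives from 0.00707 to 0.468). The null arrays were brighter at the top of their range, and the part of this in the changes with the deposited scaling was not tested. The cause of the other changes was not tested beyond the probe sets and arrays that each setting leaves out. Of the 36 calls, 27 stayed with median centring, 28 with the deposited scaling and 17 without wild type replicate 3. Over named genes 948 values stayed on their side of the threshold or within the replicate spread, 23 moved, 90 lost and 10 gained a call. Another 2 values were reversed in direction, and 28 counts of gene lists moved by over 1.5 times. Replicate numbers 2 and 3 occur in both groups. The deviations of same-numbered arrays from their group means had r = 0.00833 and 0.0078 over 45037 probe sets, which are not independent. The deviations of 2 wild type arrays mirror each other, so these values cannot exclude a shared preparation. The main fit did not use the numbers as pairs. With the replicate block, 6 members were higher and 29 lower, the median was -0.12, and complex IV had 0 higher calls. No detection calls were used here, so dim signals have no measured background, and null levels near the limit, as for Cox7a1, are the least certain.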

Other observations

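Lhx8 null replicate 1 stood apart from the other null arrays over the array as a whole, and at a smaller share of member probe sets. Of the 148 member probe sets above the limit for dim genes, 7 (4.73%) lay more than 0.5 on the log2 scale below both other null arrays in replicate 1. In that replicate 3 (2.03%) lay as far above, and the counts below and above were 0 and 0 in replicate 2 and 0 and 1 in replicate 3. Over all 18149 probe sets above the limit, 8.43% lay below and 4.62% above in replicate 1, against 1.07% and 1.01% in replicate 2 and 0.826% and 1.18% in replicate 3. The 7 were the probe set used for Ndufb6 and other probe sets of Atp5a1, Atp5o, Cox5a, Cox6c, Sdhd and Uqcrb. For Atp5o the second probe set read 1246, 4182 and 4511 in null ovaries, against 3736 and 4805 in wild type ovaries, and for Sdhd the second read 188, 644 and 789.6 in null against 649 and 641 in wild type ovaries. Ndufb6 at its brightest probe set read 4063, 7225 and 7352 in null and 7223 and 6997 in wild type ovaries and did not pass (-0.31, adjusted p = 0.246), while its other probe set, at 3829.9, 4284 and 4043 in null and 5042 and 5699 in wild type ovaries, fell by 0.40 (adjusted p = 0.0192). Cox15, an enzyme that makes the haem of complex IV, showed the same spread, with 212, 777 and 1029.5 in null and 877 and 949 in wild type ovaries (-0.72, adjusted p = 0.327). The 18S ribosomal RNA signal was 570.4, 303.4 and 307.3 in null replicates 1, 2 and 3. In the same order, the ratio of 3′ to 5′ signal was 1.693, 1.598 and 1.48 for Actb and 0.8018, 0.6577 and 0.6599 for Gapdh. The BioC control, at 2776, 3063 and 2521, was not highest in replicate 1. The part of array or RNA quality in the values of replicate 1 was not tested.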
